A study of Mus musculus with 8 samples.

Results

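Interferon-stimulated genes and genes of MHC class I antigen presentation were described in periventricular brain tissue of mice with and without *Lrig1*. The genes were chosen by name, as 31 of the 54307 genes in the deposited gene table. The choice set no cut on measured values, but earlier results of these data were known. Bulk RNA-seq had been run on the microdissected periventricular area, which contains the ventricular-subventricular zone (V-SVZ) of the lateral ventricle, from 1 hemisphere per mouse. Both groups held 4 mice at 8 weeks of age on the 129-Elite strain background. The *Lrig1* knockout (KO) mice were homozygous for CreERT2 knocked into exon 1 of *Lrig1*, a constitutive knockout in which every cell carries the change, and so also carried CreERT2, which WT mice did not. The wild-type (WT) mice were littermates with both alleles intact. WT replicates 1, 3 and 4 and KO replicates 2 and 4 were female, and WT replicate 2 and KO replicates 1 and 3 were male, so that the groups held 3 and 2 females.

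Type I interferons bind a receptor of IFNAR1 and IFNAR2, and the kinases JAK1 and TYK2 then phosphorylate STAT proteins, among them STAT2. A complex that holds STAT2 and IRF9 binds the interferon-stimulated response element in DNA, which switches on genes whose products block viral replication, tag proteins with ISG15 or present antigen. In the adult brain most of these genes have a low tonic level without infection, and microglia, endothelial cells and neural stem cells can all respond to interferon.

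The core of the response element appeared in the promoters of many of these genes, and the stretches that hold it are shown because it is the DNA feature that the set is known for. RefSeq promoters on GRCm38.p6, running from 250 bases before to 50 bases after the start of transcription, were matched for 26 of the 31 genes, and *Ifi27*, *Mx1*, *Mx2*, *Usp18* and *Rtp4* had no match. The core, GAAA followed after any 2 bases by another GAAA and searched on both strands, stood in 13 of these 26 promoters (50%) and in 1131 of all 32851 promoters in the table (3.44%). Matches can overlap, as the 3 in *Isg15* do. The windows below read 5′ to 3′ along the strand of the gene, end before the start of transcription, and have the matched letters in capitals.
*Isg15*, chr4:156200860-156200911, minus strand: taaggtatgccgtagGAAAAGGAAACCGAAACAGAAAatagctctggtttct
*Ifit1*, chr19:34640770-34640828, plus strand: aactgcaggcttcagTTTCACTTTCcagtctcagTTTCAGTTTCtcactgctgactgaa
*Ifit3*, chr19:34583358-34583431, plus strand: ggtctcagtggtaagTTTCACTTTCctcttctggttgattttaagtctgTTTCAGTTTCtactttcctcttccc
*Ifit3b*, chr19:34607754-34607827, plus strand: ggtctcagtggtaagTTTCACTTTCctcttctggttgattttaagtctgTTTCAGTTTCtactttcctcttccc
*Rsad2*, chr12:26456548-26456587, minus strand: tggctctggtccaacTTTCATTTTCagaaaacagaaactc
*Oas1a*, chr5:120907526-120907560, minus strand: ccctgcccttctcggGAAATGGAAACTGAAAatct
*Gbp2*, chr3:142620589-142620628, plus strand: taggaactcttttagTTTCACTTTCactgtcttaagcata
*B2m*, chr2:122147533-122147572, plus strand: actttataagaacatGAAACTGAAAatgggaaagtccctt

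The windows of *Ifit3* and *Ifit3b* were identical at all 74 positions. The other promoters with a match were those of *Bst2*, *Gbp3*, *Ifih1*, *Ifitm3* and *Stat2*, and those of *Ifih1* and *Ifitm3* had it only after the start. No such core was found in the promoters of *H2-D1*, *H2-K1*, *Ifi44*, *Ifit2*, *Irf7*, *Irf9*, *Lgals3bp*, *Oasl2*, *Psmb8*, *Psmb9*, *Tap1*, *Trim25* and *Xaf1*, which says only that these letters are not in this window. For each gene of the set only the first listed promoter was searched, although *Gbp3*, *H2-K1*, *Ifit2* and *Irf9* had 2. The letters TTCNNNGAA, the core that STAT dimers bind and the same on both strands, stood in 5 of the 26 promoters, those of *Bst2*, *Ifit2*, *Ifitm3*, *Oas1a* and *Psmb8*, against 8.3% of all promoters. *Psmb9* and *Tap1* lie head to head on chromosome 17, and 275 of the 300 bases of their promoters were the same stretch of DNA.

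Estimated counts per mouse summed to between 47887437 and 74482334. *Lrig1* had 45.6, 13.5, 41.4 and 34.3 CPM (estimated counts scaled to library size) in WT replicates 1 to 4 and 1.41, 4.15, 1.17 and 2.96 CPM in KO replicates 1 to 4. All 4 KO mice lay below all 4 WT mice (log2 fold change −3.80, SE 0.52; exact two-sided permutation p = 0.0286, the smallest that 4 against 4 mice can give). With edgeR's quasi-likelihood test the adjusted p of *Lrig1* was 0.286 without and 0.000176 with sex as a covariate. Of 17669 genes tested, 1 was called at an adjusted p under 0.1. Markers of the V-SVZ were present, with *Dcx* at 24.6 to 33.2 CPM and *Sox2* at 50.9 to 74.7 CPM.

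The genes spanned a wide range of levels per length. In TPM, a scale that corrects for transcript length, *B2m*, the light chain of MHC class I, was highest at 81.9 ± 16.3 in WT and 84.2 ± 12.5 in KO (mean ± SD, n = 4 each). *Ifi27*, a mitochondrial protein of the interferon response, came next at 30.5 ± 3.76 and 30.5 ± 5.09 TPM, then *H2-D1*, a class I heavy chain, at 24.6 ± 6.13 and 26.0 ± 3.46 TPM. *Ifitm3*, which hinders the entry of viruses at endosomes, had 20.4 ± 4.0 and 18.1 ± 0.567 TPM, and *H2-K1*, the other class I heavy chain, 17.5 ± 3.83 and 19.0 ± 3.81 TPM. *B2m* stood above the rest by more than the spread between mice, whereas neighbouring genes in the order from *Ifi27* to *H2-K1* overlapped.

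**Figure D1:**
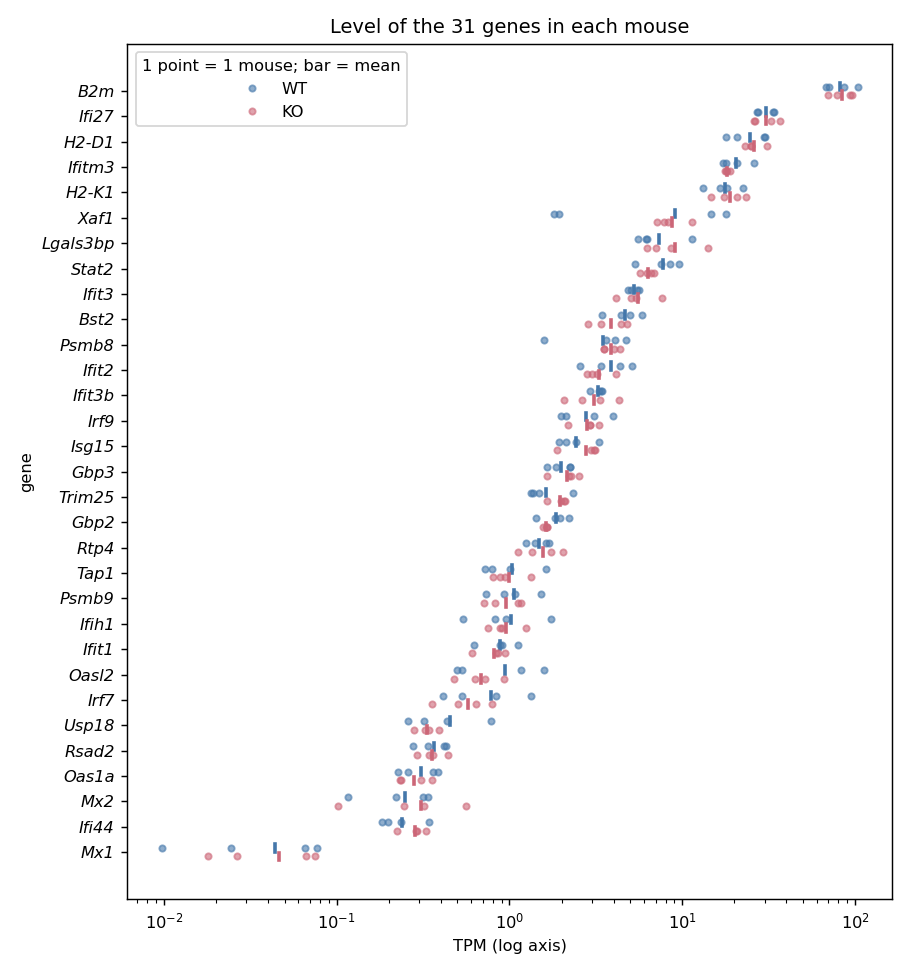
TPM of the 31 genes on a log axis, ordered by the mean over the 8 mice, with 1 point per mouse and a bar for the mean of WT (blue) and KO (red). 5 genes lay above 10 TPM and 10 below 1 TPM on average, the colours overlap for every gene, and *Xaf1* has 2 WT points far to the left of the others.

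At the other end, 10 of the 31 genes averaged under 1 TPM. These were *Ifih1*, *Ifit1*, *Oasl2*, *Irf7*, *Usp18*, *Rsad2*, *Oas1a*, *Mx2*, *Ifi44* and *Mx1*, mostly effectors whose transcripts build up after exposure to interferon. *Mx1*, a GTPase that blocks influenza viruses, had 1 to 13 estimated counts per mouse, failed the filter on low counts, and was the only gene of the set that was not tested. *Usp18* rested on 16 to 44 and *Oas1a* on 14 to 27 counts per mouse, against 1613 to 2586 for *B2m*.

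No gene of the set passed the test between KO and WT. With edgeR's quasi-likelihood test 0 of the 30 tested genes passed an adjusted p of 0.1 (0.00566% of all genes tested), and 0 had an unadjusted p under 0.05 (1.88% of all genes tested). DESeq2 called 0 as well, both without covariates (0.0736% of all genes tested) and with sex as a covariate (1.21%), and gave 0 and 1 genes with an unadjusted p under 0.05 (2.22% and 7.47% of all genes tested). edgeR with sex as a covariate called 0 (0.0113%) and gave 2 with an unadjusted p under 0.05, *Stat2* and *Lgals3bp* (6.95%). In 14 genes the level was higher in KO and in 16 lower (49.7% of all genes tested were higher), and the fold changes centred on a median log2 value of −0.00566, against −0.000942 over all genes tested. In none of the 30 genes were the groups free of overlap (1.53% of all genes tested).

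The size of the differences that these data still allow was given by the 95% intervals of the fold change. In 15 of the 30 genes the interval lay within a ratio of 1.5 in either direction, and in 24 within a ratio of 2 (62.6% and 82.0% of all genes tested). Intervals reaching past a ratio of 2 belonged to *Irf7*, *Usp18*, *Oasl2*, *Mx2*, *Xaf1* and *Lgals3bp*. The single log2 fold changes ran from −0.36 to 0.36 with standard errors of 0.11 to 0.73.

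**Figure D2:**
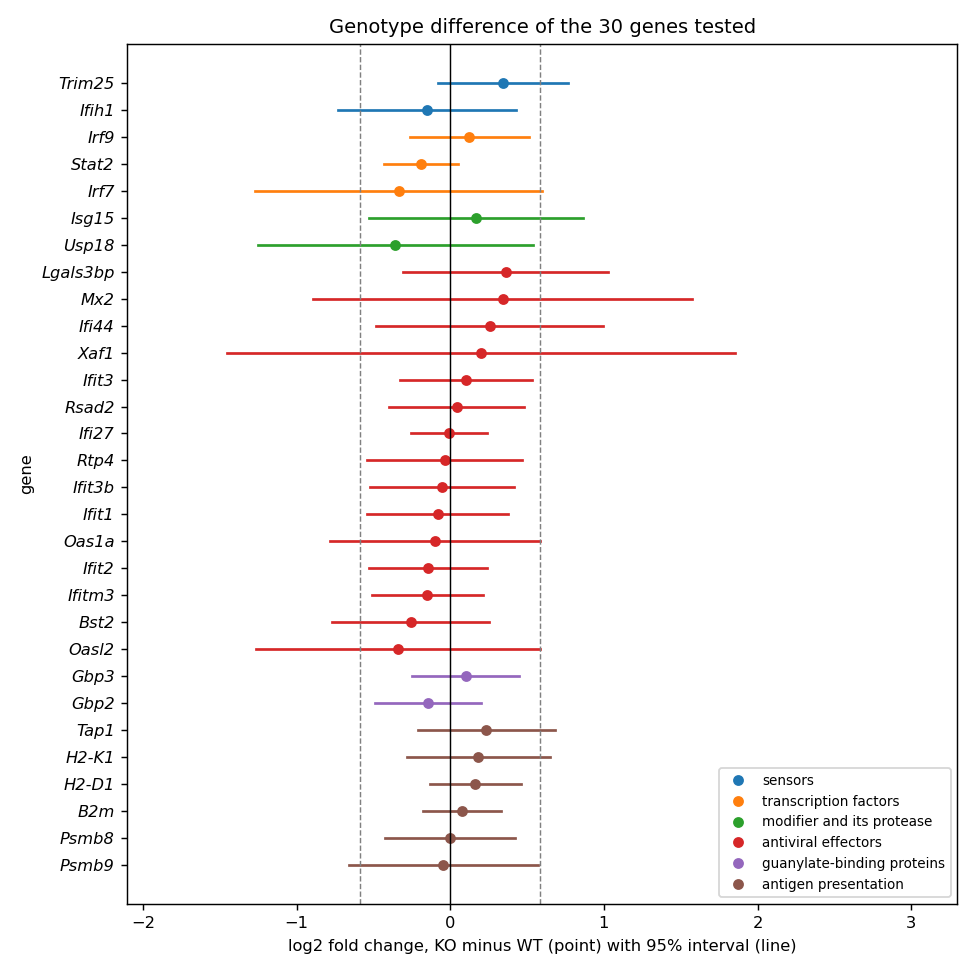
Log2 fold change of KO against WT for the 30 tested genes (points) with 95% intervals (lines), grouped by role; dashed lines mark a ratio of 1.5 in either direction. Every interval includes 0, the narrowest belong to *Stat2*, *Ifi27* and *B2m*, and the widest to *Xaf1* and *Mx2*.

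Upstream of the set, interferons themselves were close to absent from the tissue. All 21 interferon genes of the listed pathway failed the filter, 20 of them had at most 3 counts in every mouse and 18 had 0 in every mouse, which at this depth limits their level and does not exclude it. *Ifng* had the highest, with 7 counts in 1 mouse. The receptor chains were well measured. *Ifnar1*, a chain of the type I receptor, had 40.0 ± 3.95 CPM in WT and 42.9 ± 2.51 CPM in KO (95% interval of the KO to WT ratio 0.94 to 1.23, n = 4 each), and its partner *Ifnar2* 15.4 ± 0.740 and 15.5 ± 1.2 CPM (0.88 to 1.15). The chains of the interferon gamma receptor, *Ifngr1* and *Ifngr2*, had ratio intervals of 0.81 to 1.14 and 0.78 to 1.2. *Irf1*, a transcription factor induced by interferon gamma, had 2.72 ± 0.368 CPM in WT and 2.54 ± 0.511 CPM in KO (0.7 to 1.24).

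Both sensors of the set were measured at moderate counts. *Trim25*, a ubiquitin ligase that activates the RNA sensor RIG-I, had 5.41, 5.35, 6.56 and 8.6 CPM in WT replicates 1 to 4 and 9.75, 8.26, 6.48 and 8.45 CPM in KO replicates 1 to 4. Its mean was 6.48 ± 1.52 in WT and 8.23 ± 1.34 CPM in KO, with the smallest p of the set (log2 fold change 0.34, SE 0.19; unadjusted p = 0.0978, adjusted p = 1.0 with edgeR's quasi-likelihood test). WT replicate 4 lay with the KO mice and KO replicate 3 with the WT mice, and the other mice were separated by genotype. *Ifih1*, which encodes the RNA sensor MDA5, had 3.33 ± 1.16 CPM in WT and 3.0 ± 0.622 CPM in KO (95% interval of the ratio 0.6 to 1.34).

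Among the transcription factors, *Stat2*, a subunit of the complex that binds the response element, had 19.8, 21.7, 15.9 and 17.9 CPM in WT replicates 1 to 4. In KO replicates 1 to 4 it had 16.3, 15.4, 17.5 and 16.8 CPM, a mean of 16.5 ± 0.895 against 18.8 ± 2.48 CPM in WT (log2 fold change −0.19, SE 0.11; unadjusted p = 0.108, edgeR). WT replicates 1, 2 and 4 were above every KO mouse, but WT replicate 3 was below all but 1 of them. With sex as a covariate the unadjusted p of *Stat2* was 0.0483 (edgeR), and its adjusted p was at least 0.634 in every alternative fit. *Irf9*, the DNA-binding subunit of the same complex, had 4.55 ± 0.980 and 4.96 ± 0.623 CPM. *Irf7*, which amplifies type I interferon production, had 0.966 ± 0.554 and 0.762 ± 0.249 CPM, and its highest value of 1.77 CPM in WT replicate 3 was 4.01 times its lowest in KO replicate 4.

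ISG15 is a ubiquitin-like modifier, and USP18 removes it from proteins and also dampens receptor signalling. *Isg15* had 0.762 ± 0.291 CPM in WT and 0.855 ± 0.217 CPM in KO. *Usp18* had 0.306, 0.442, 0.938 and 0.326 CPM in WT replicates 1 to 4 and 0.508, 0.372, 0.371 and 0.315 CPM in KO replicates 1 to 4 (log2 fold change −0.36, SE 0.39; unadjusted p = 0.390, edgeR). For *Usp18* only WT replicate 3 lay outside the range of 0.306 to 0.508 CPM that held the other 7 mice, and without that mouse its log2 fold change turned to 0.12. The difference in *Irf7* likewise went from −0.34 to 0.13 without WT replicate 3.

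Of the 15 antiviral effectors tested, 6 had a higher and 9 a lower mean in KO (median log2 fold change −0.04). *Lgals3bp*, a secreted glycoprotein that binds galectins, had 10.2, 7.74, 11.1 and 16.0 CPM in WT replicates 1 to 4 and 12.7, 22.5, 9.41 and 13.2 CPM in KO replicates 1 to 4. The 22.5 CPM of KO replicate 2 stood apart from the rest, and the other 7 mice were interleaved between genotypes (log2 fold change 0.36, SE 0.29; unadjusted p = 0.250, edgeR). With sex as a covariate its unadjusted p was 0.042 (edgeR), and its adjusted p ranged from 0.424 to 1.0 over the alternative fits.

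*Bst2*, which tethers budding virions to the cell membrane, had 1.35, 1.52, 2.26 and 1.96 CPM in WT replicates 1 to 4 and 1.25, 1.83, 1.19 and 1.66 CPM in KO replicates 1 to 4. *Ifitm3* had 5.32, 4.81, 7.27 and 6.77 CPM in WT and 6.21, 5.65, 4.77 and 5.16 CPM in KO, in the same order. In both genes WT replicates 3 and 4 were the highest of the 8 mice, and WT replicates 1 and 2 lay among the KO mice (log2 fold changes −0.26, SE 0.22 and −0.15, SE 0.16; unadjusted p = 0.285 and 0.374, edgeR).

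*Ifit2*, an RNA-binding protein that represses the translation of viral RNA, had 7.93, 11.8, 7.5 and 9.66 CPM in WT replicates 1 to 4 and 8.55, 8.04, 9.82 and 6.94 CPM in KO replicates 1 to 4. *Oasl2*, of the family of oligoadenylate synthetases, had 1.21, 0.786, 2.43 and 2.41 CPM in WT and 0.820, 1.96, 1.13 and 1.47 CPM in KO, in the same order. For both genes the genotypes were interleaved, with unadjusted p of 0.415 and 0.427 (edgeR), and the highest and lowest mice differed in sex, as described further on. Of the remaining effectors, *Ifi27* was the best bounded (14.1 ± 0.675 CPM in WT, 14.0 ± 1.94 CPM in KO, ratio interval 0.84 to 1.18). *Rsad2*, which encodes viperin, an enzyme that makes a chain terminator of viral RNA synthesis, had 0.962 ± 0.0727 and 0.993 ± 0.187 CPM (0.76 to 1.4). *Ifit1*, which binds foreign RNA caps, had 1.59 ± 0.352 and 1.5 ± 0.197 CPM (0.69 to 1.3). *Ifi44*, *Rtp4*, *Oas1a* and *Mx2* had log2 fold changes of 0.26, −0.04, −0.10 and 0.34 with standard errors of 0.33, 0.22, 0.30 and 0.54.

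Some of these values rest on reads that cannot be placed on a single gene. In the transcripts of Gencode M21, 61.8% of the 31-base words of *Ifit3* also occurred in *Ifit3b*, and 68.8% of those of *Oas1a* in other genes, mostly *Oas1g*. *H2-D1* and *H2-K1* shared 26.7% and 22.8% of their words with other genes. How Salmon split such reads was not tested, so the copies were also summed before the fit. *Ifit3* and *Ifit3b* together had 10.1 ± 1.58 CPM in WT and 10.4 ± 2.66 CPM in KO (log2 fold change 0.04, SE 0.19; n = 4 each), against log2 fold changes of 0.10 and −0.05 for each alone. A further 19 of the 31 genes shared under 5% of their words.

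The guanylate-binding proteins are GTPases that attack the vacuoles of pathogens. *Gbp2* had 2.52, 2.99, 3.69 and 3.4 CPM in WT replicates 1 to 4 and 3.20, 2.86, 2.57 and 2.77 CPM in KO replicates 1 to 4 (log2 fold change −0.14, SE 0.15; unadjusted p = 0.371, edgeR). Its lowest and highest mice were both WT, and the KO mice lay between them. *Gbp3* had 3.33 ± 0.660 CPM in WT and 3.57 ± 0.186 CPM in KO.

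Antigen presentation by MHC class I joins peptides cut by the immunoproteasome (*Psmb8*, *Psmb9*) and pumped by the transporter *Tap1* to a heavy chain (*H2-K1*, *H2-D1*) and *B2m*. Of these 6 genes, 4 had a higher and 2 a lower level in KO, their median log2 fold change was 0.12, and none was called. *H2-D1* had 28.7, 35.3, 27.8 and 36.0 CPM in WT replicates 1 to 4 and 38.5, 41.7, 29.7 and 33.4 CPM in KO replicates 1 to 4 (log2 fold change 0.16, SE 0.13; unadjusted p = 0.245, edgeR). *H2-K1* had 13.4, 16.0, 19.4 and 19.5 CPM in WT and 26.5, 20.2, 13.9 and 16.8 CPM in KO, in the same order (log2 fold change 0.18, SE 0.20; unadjusted p = 0.397, edgeR). For both heavy chains KO replicates 1 and 2 were the highest of the 8 mice in CPM, and KO replicates 3 and 4 lay among the WT mice. This order did not hold in TPM. *H2-D1* had 24.9 TPM in KO replicate 1, below the 29.9 and 29.6 TPM of WT replicates 2 and 4. *H2-K1* had 20.6 TPM in KO replicate 2, below the 22.3 TPM of WT replicate 4.

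*Tap1* had the same pair of KO mice at the top in CPM. It had 1.53, 1.85, 1.92 and 1.81 CPM in WT replicates 1 to 4 and 2.21, 2.78, 1.62 and 1.78 CPM in KO replicates 1 to 4 (log2 fold change 0.24, SE 0.20; unadjusted p = 0.261, edgeR). In TPM, WT replicate 4 was the highest for *Tap1* at 1.63, and KO replicate 1 had 0.938. *Psmb9*, which shares its promoter DNA with *Tap1*, had 0.849 ± 0.194 CPM in WT and 0.824 ± 0.231 CPM in KO, and *Psmb8* 2.2 ± 0.471 and 2.19 ± 0.281 CPM. *B2m* was the most even gene of the set across mice, with a highest value 1.31 times its lowest, 34.9 ± 3.82 CPM in WT and 36.8 ± 4.60 CPM in KO. Summed over 14 MHC class I genes, the level was 73.0 ± 9.86 CPM in WT and 79.6 ± 10.4 CPM in KO (log2 fold change 0.12, SE 0.12; unadjusted p = 0.341, edgeR).

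The rest of the pathway gave the same count. Of 191 other listed genes 186 were in the table and 128 were tested, 71 with a higher and 57 with a lower mean in KO, and 0 passed an adjusted p of 0.1 with edgeR or with DESeq2. At an unadjusted p under 0.05 there was 1 with edgeR (1.88% of all genes tested), 1 with DESeq2 (2.22%) and 4 with DESeq2 and sex as a covariate (7.47%). The edgeR gene was *Znfx1*, a helicase that senses RNA at mitochondria. *Znfx1* had 84.6, 89.1, 87.1 and 88.0 CPM in WT replicates 1 to 4 and 74.1, 57.1, 75.4 and 74.5 CPM in KO replicates 1 to 4. All 4 KO mice lay below all 4 WT mice, the only such gene of the 128 (1.53% of all genes tested), but the difference did not pass the adjustment over all genes (log2 fold change −0.31, SE 0.09; unadjusted p = 0.00873, adjusted p = 1.0 with edgeR, and from 0.1005 to 1.0 over the alternative fits).

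The next genes by p with a lower mean in KO were *Tgtp1*, *Tor3a*, *Sp100* and *H2-Ob*, with log2 fold changes of −0.77, −0.28, −0.30 and −0.52 and unadjusted p of 0.0582 to 0.103 (edgeR). Those with a higher mean were *Eif2ak2*, the kinase PKR that halts translation on double-stranded RNA, *H2-Oa*, *Ifi47*, *Gbp4* and *Irgm1*, with log2 fold changes of 0.23, 0.56, 0.40, 0.45 and 0.22 and unadjusted p of 0.0851 to 0.140. *H2-Oa* and *H2-Ob* encode the 2 chains of one protein, the regulator of peptide loading on MHC class II, and their differences had opposite signs. In CPM the groups overlapped in all of these genes. In TPM those of *Sp100* did not, with 1.65 to 1.95 in WT and 1.25 to 1.55 in KO.

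The levels of these genes differed between the 8 mice, taken over both genotypes. The highest of the 8 mice was at a median of 1.81 times the lowest across the 30 genes (1.52 times across 17107 genes tested, counting those with more than 3 counts in every mouse), and it was over 2 times the lowest in 9 of the 30 genes (28.5% of those genes). WT replicate 3 had the highest value in 12 of the 30 genes (13.2% of all genes tested), which were *Irf7*, *Isg15*, *Usp18*, *Ifit1*, *Oasl2*, *Oas1a*, *Bst2*, *Ifitm3*, *Ifi44*, *Gbp2*, *Gbp3* and *Psmb8*. KO replicate 2 had the highest in 8, which were *Ifit3*, *Ifit3b*, *Mx2*, *Rsad2*, *Ifi27*, *Lgals3bp*, *Tap1* and *H2-D1* (16.0% of all genes tested). WT replicate 1 was highest in 0 genes, lowest in 9 (6.39% of all genes tested) and among the upper 4 mice in 2 of 30 (51.7% of all genes tested). These ranks are of CPM, and the highest mouse could differ in TPM. In TPM, WT replicate 3 stayed highest for *Irf7*, *Isg15*, *Usp18*, *Oas1a* and *Ifi44*. There WT replicate 4 was highest for *Oasl2*, *Bst2*, *Ifitm3*, *Gbp2*, *Psmb8* and *Tap1*, WT replicate 2 for *Ifit1* and KO replicate 2 for *Gbp3*.

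**Figure D3:**
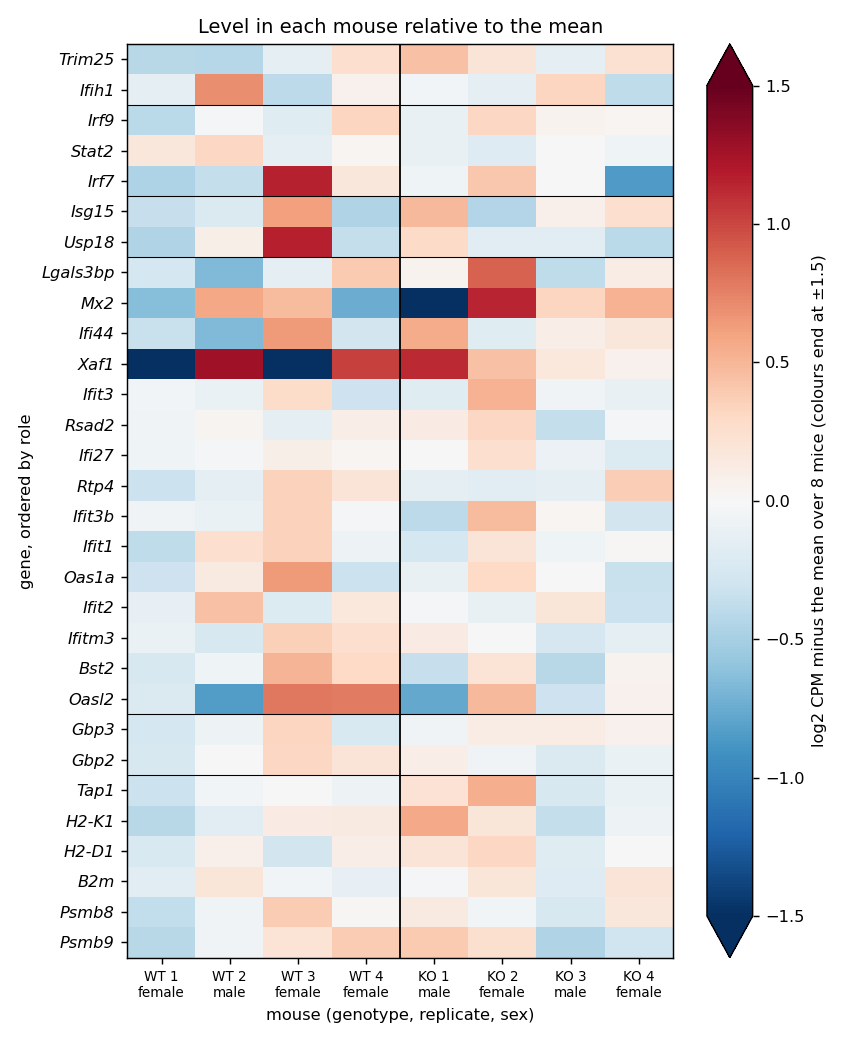
Log2 CPM of the 30 tested genes (rows, by role) in each mouse (columns, with sex), minus the mean over the 8 mice; red is above and blue below that mean, and the vertical line separates WT from KO. WT replicate 3 is red for most effectors, WT replicate 1 is blue in nearly all rows, and no block of rows changes colour at the vertical line.

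A mean over the 30 genes of log2 CPM, centred over the 8 mice, summarised this pattern. It was −0.31, −0.01, 0.17 and 0.07 in WT replicates 1 to 4 and 0.02, 0.20, −0.10 and −0.04 in KO replicates 1 to 4. The lowest and the second highest mouse were thus both WT, and the 4 KO mice lay between −0.10 and 0.20. For the 6 antigen presentation genes alone the mean was −0.31, −0.01, 0.06 and 0.07 in WT and 0.24, 0.23, −0.27 and −0.02 in KO, so KO replicate 1 stood high there and not among the other 24 genes, where it had −0.03. The median log2 fold change of the set moved to −0.10 without WT replicate 1 and to 0.08 without WT replicate 3.

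Cell type markers also moved between these mice. In bulk tissue fewer cells of a type and less RNA per cell cannot be told apart. WT replicate 3 had the highest summed level of 10 microglia markers (570 CPM, range 404 to 570 over the 8 mice), of 10 endothelial markers (251, range 185 to 251), of 7 mural cell markers (246, range 154 to 246) and of 5 red blood cell markers (491, range 139 to 491). It was also the highest for the T and NK cell, choroid plexus, astrocyte and oligodendrocyte lists, 8 of the 14 lists in all. KO replicate 2 had the lowest microglia sum of 404 CPM and the highest sum of 6 ependymal markers, 49.2 CPM. WT replicate 1 had 527, 194 and 234 CPM for microglia, endothelial and red blood cell markers. The part of these shifts in the levels of interferon-stimulated genes was not tested. Of the markers of blood-borne leukocytes, 3 of 8 for T and NK cells, 1 of 4 for B cells and 1 of 8 for neutrophils and monocytes passed the filter on low counts. *Cd4*, which is not specific to T cells, had 23.4 to 64.8 CPM and made up most of the T and NK cell sum of 25.6 to 67.6 CPM. *Trac* had 0.594 to 2.45 CPM and *Lck* 1.19 to 2.34 CPM. *Cd3e*, a defining chain of the T cell receptor complex, had at most 0.158 CPM. The summed B cell markers had 0.295 to 0.522 CPM and the summed neutrophil and monocyte markers 0.573 to 1.05 CPM, with *Ly6g* at 0 counts in every mouse.

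By genotype, the summed marker levels overlapped between KO and WT for microglia (433 to 570 CPM in WT, 404 to 526 CPM in KO), endothelial cells (185 to 251 and 205 to 229 CPM) and red blood cells (139 to 491 and 143 to 368 CPM). The sums of 6 astrocyte markers did not overlap but nearly met, with 3908 to 4408 CPM in WT and 3568 to 3903 CPM in KO. Of these 6 markers, 2 were higher and 4 lower in KO with edgeR and no covariate. No marker of any of the 14 lists was called with edgeR at an adjusted p of 0.1. DESeq2 with sex as a covariate called 1 (1.21% of all genes tested), the choroid plexus marker *Clic6* (log2 fold change 0.77, adjusted p = 0.0375). With edgeR and no covariate, 2 of the 6 choroid plexus markers tested were higher and 4 lower in KO (median log2 fold change −0.14). An unadjusted p under 0.05 was reached by 1 of the 10 microglia markers, 1 of the 7 mural, 1 of the 6 astrocyte and 1 of the 7 neural stem cell and neuroblast markers (1.88% of all genes tested). All 7 mural and all 5 oligodendrocyte markers had a lower level in KO (49.7% of all genes tested were higher). Their log2 fold changes ran from −0.35 to −0.07 and from −0.18 to −0.008. The summed levels overlapped, with 182 to 246 CPM in WT and 154 to 204 CPM in KO for mural markers. For oligodendrocyte markers they were 6441 to 6998 and 5424 to 6890 CPM.

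Sex was unequal between the genotypes, and 4 of the 30 genes had an unadjusted p under 0.05 for females against males in the edgeR fit with genotype (15.9% of all genes tested). None passed an adjusted p of 0.1 with edgeR (3.72% of all genes tested), while DESeq2 with genotype and sex called 3, *Oasl2*, *Lgals3bp* and *Ifih1* (8.65% of all genes tested). The log2 difference for sex in this edgeR fit, adjusted for genotype, was above 0 (higher in females) in 22 genes and below 0 in 8 (50.5% of all genes tested were higher). Its median was 0.07. *Oasl2* had 1.21, 2.43, 2.41, 1.96 and 1.47 CPM in the females and 0.786, 0.820 and 1.13 CPM in the males (log2 difference 1.03, SE 0.31; unadjusted p = 0.00994, adjusted p = 0.156, edgeR). In CPM every female lay above every male, the only gene of the set in which the sexes did not overlap (7.5% of all genes tested). In TPM the sexes overlapped for *Oasl2*, with 0.535 in WT replicate 1, a female, and 0.628 in KO replicate 3, a male.

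*Lgals3bp* averaged 14.6 ± 4.95 CPM in 5 females and 9.96 ± 2.53 CPM in 3 males, and *Bst2* 1.81 ± 0.339 and 1.32 ± 0.176 CPM (log2 differences 0.69, SE 0.23 and 0.41, SE 0.21). *Ifih1* and *Ifit2* had lower means in females, 2.69 ± 0.355 against 3.94 ± 1.01 CPM and 8.02 ± 1.02 against 10.04 ± 1.61 CPM (log2 differences −0.60, SE 0.18 and −0.38, SE 0.13). For *Ifih1* and *Ifit2*, WT replicate 2, a male, had the highest value of the 8 mice, and KO replicate 3, another male, the second highest. The adjusted p for sex was 0.147 for *Ifih1*, 0.190 for *Lgals3bp*, 0.196 for *Ifit2* and 0.382 for *Bst2* with edgeR.

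**Figure D4:**
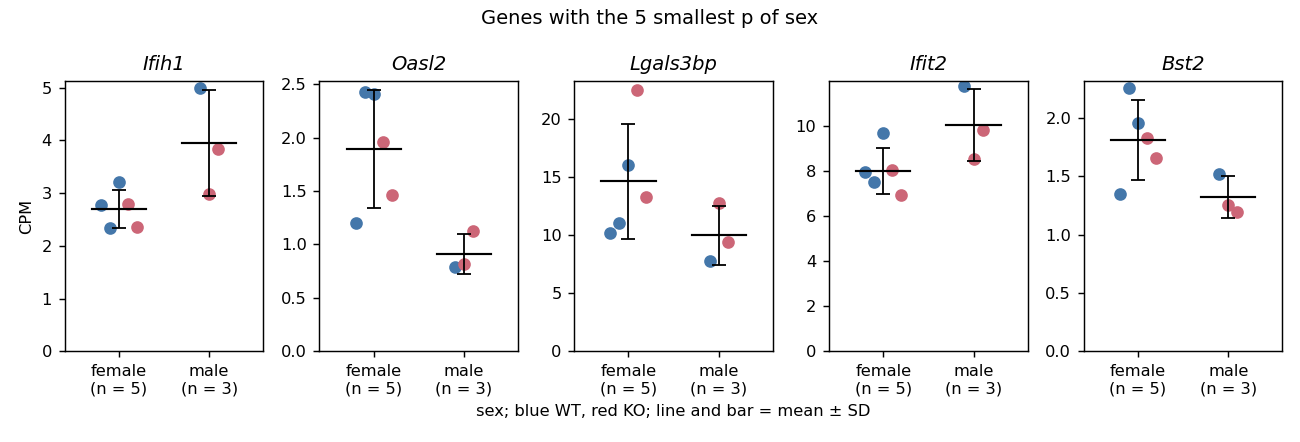
CPM of the 5 genes with the smallest p of sex in 5 female and 3 male mice (blue WT, red KO), with the mean as a line and the SD as a bar; each axis starts at 0. All females lie above all males for *Oasl2* and the sexes overlap for the other 4 genes.

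*Xaf1*, an interferon-induced partner of the apoptosis inhibitor XIAP, was singled out after its values were seen because its mice split most widely. It had 1.6, 15.7, 1.53 and 13.2 CPM in WT replicates 1 to 4 and 14.1, 8.77, 7.25 and 6.76 CPM in KO replicates 1 to 4. WT replicates 1 and 3, both female, were far below the other 6 mice, and the highest of all mice was 10.2 times the lowest. Replicate 4, the third WT female, lay with the high mice, so the split followed neither sex nor genotype. *Xaf1* therefore had the widest interval of the set, with a KO to WT ratio of 0.37 to 3.61 (log2 fold change 0.20, SE 0.73).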

How the data were processed

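Bulk polyA RNA-seq of 4 WT and 4 *Lrig1* KO mice was analysed, grouped by the genotype in the labels. The authors ran Salmon against Gencode M29 and deposited estimated counts per gene without normalization, plus estimated counts and TPM per transcript in each mouse; how transcripts were summed to genes is not given in the sources used here. Symbols were matched for 94.8% of gene identifiers. Estimated counts were rounded, filtered with filterByExpr and tested with edgeR 4.0.16 (R 4.3.3; TMM, quasi-likelihood test, no covariate, Benjamini-Hochberg over 17669 genes, threshold 0.1). Standard errors are the log2 fold change over the square root of F. DESeq2 1.42.0 was an alternative. The scripts were checked on simulated data. CPM are TMM-normalized; scores used a prior count of 2. Separate mice were the replicates. Nothing in the labels gave a batch.

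The genes and lists were chosen with earlier results of these data known. Values in every mouse are given for the 12 genes with the smallest p, for genes whose groups did not overlap in CPM, and for genes singled out. Of the other pathway genes, up to 5 in each direction by p, the receptors and *Irf1* are given, and for sex up to 5. A few genes that this rule or the marker lists name are not reported here. Promoters came from RefSeq on GRCm38.p6, and shared 31-base words from Gencode M21 transcripts, an older annotation than the authors'. Alternatives were the normalization, tool, filter, covariate, block, females only, threshold and each mouse left out.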

Additional observations from a re-analysis of the deposited data

Results flagged for a closer look

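In 5 of 66 groups of 4 mice examined, a mouse lay far from the others of its genotype by Dixon's criterion, which chance alone meets in about 1 of 20 groups. *Isg15* was at 1.19 CPM in WT replicate 3, with the next WT mouse at 0.671 CPM. *Ifit3b* was at 5.22 CPM in the same mouse, with the next at 4.04 CPM. In TPM, *Ifit3b* did not stand apart there, with 3.37 in WT replicate 3 and 3.42 in WT replicate 4. *Ifit3* was at 8.57 CPM in KO replicate 2, with the next KO mouse at 5.75 CPM. *Rtp4*, a chaperone of receptors in the Golgi, was at 1.34 CPM in KO replicate 4, with the next at 0.941 CPM. The criterion was applied to CPM, and in TPM the same mice stood closer to the next. *Isg15* had 3.29 TPM in WT replicate 3 and 2.42 in WT replicate 2. *Ifit3* had 7.58 TPM in KO replicate 2 and 5.41 in KO replicate 3. *Rtp4* had 2.03 TPM in KO replicate 4 and 1.73 in KO replicate 3. The mean of centred log2 CPM over the 24 genes outside antigen presentation was 0.19 in KO replicate 2, with the next KO mouse at −0.03.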

How the results depend on the processing

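The count of 0 called genes for KO against WT, in the set and in the rest of the pathway, was also 0 in every alternative run, including each mouse left out. Across all genes the count of 1 became 13 with DESeq2, 213 with DESeq2 and sex, 2 without a filter, 0 with at least 10 counts in every mouse, 2 with sex as a covariate, 3 in females only and 0 to 3 with a mouse left out. The replicate block left 0 calls over all genes. Same-numbered mice correlated at 0.08, −0.22, −0.22 and 0.27, and the largest correlation was 0.54, between WT replicate 2 and KO replicate 3. The labels name no pairs, and these correlations cannot decide whether the mice were paired, since sex also differed between same-numbered mice. For *Lrig1* the log2 fold change was −3.80 with DESeq2, −3.47 with DESeq2 and sex, −3.80 without a filter, −3.47 with sex as a covariate and −3.50 in females, each past the threshold, −3.86 with the block and −4.19 to −3.56 with a mouse left out. For sex, 3 genes of the set were called with DESeq2, 2 without a filter (*Oasl2* and *Lgals3bp*) and 0 to 1 with a mouse left out (*Ifih1*, without KO replicate 1). *B2m* was 40.0 times the median gene of the set in TPM and 31.7 times in CPM per kilobase.

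No log2 fold change that turned sign was called in either fit. With sex as a covariate the values were 0.0064 for *Ifit3b*, 0.0057 for *Ifi27*, 0.027 for *Rtp4* and 0.024 for *Psmb8*, and with DESeq2 and sex 0.0055, 0.0042, 0.027 and 0.023. In females only they were 0.050, 0.024, 0.040 and 0.038 for these genes, −0.064 for *Isg15*, 0.12 for *Ifit1*, −0.072 for *Ifi44*, −0.046 for *Ifnar2* and 0.081 for *Ifngr2*. *Psmb8* was at 0.0012 with at least 10 counts and 0.012 with the block, and *Ifit3b* summed with *Ifit3* at 0.039. With a mouse left out, the genes that turned ranged from −0.30 to 0.11 for *Ifih1*, −0.53 to 0.13 for *Irf7*, −0.53 to 0.12 for *Usp18*, −0.20 to 0.025 for *Ifit1*, −0.082 to 0.22 for *Ifit3*, −0.25 to 0.058 for *Ifit3b*, −0.22 to 0.13 for *Oas1a*, −0.023 to 0.65 for *Mx2*, −0.061 to 0.16 for *Rsad2*, −0.14 to 0.76 for *Xaf1*, −0.10 to 0.054 for *Ifi27*, −0.18 to 0.083 for *Rtp4*, −0.11 to 0.14 for *Psmb8*, −0.20 to 0.085 for *Psmb9*, −0.0058 to 0.31 for *H2-K1*, −0.028 to 0.053 for *Ifnar2*, −0.11 to 0.0093 for *Ifngr1*, −0.12 to 0.11 for *Ifngr2*, −0.21 to 0.027 for *Irf1*. Of the 30 genes of the set, 13 kept one direction in every fit. All fits used counts. Of these 13 genes only *Tap1* went the other way in mean TPM, with 1.04 in WT and 0.990 in KO. The cause of these turns was not tested.

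No fit varied the depth or raised the number of mice.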

Other observations

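The split of *Xaf1* was looked for in other genes after its values were seen. In 16 of 17669 genes tested, WT replicates 1 and 3 were both below 0.5 times the lowest of the other 6 mice, and in 1 gene, *Kpna2*, both were above 2 times the highest. *Gm10184* had 0 CPM in both mice and 13.9 to 33.2 CPM in the others. *AA465934* had 0.522 and 0.512 CPM, against 5.42 to 10.8 CPM. *Gm5182* had 0.216 and 0.512 CPM, against 3.08 to 6.87 CPM. Of the 12 genes with a chromosome in the RefSeq table, 3 lay on chromosome 11, *Xaf1* itself, *AA465934* and *Ccr10*. *Xaf1* defined the split, so only *AA465934* and *Ccr10* can be set beside the 7.74% of all tested genes with a chromosome that lie there. Why these 2 mice differ in these genes was not tested.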
